A study of Mus musculus with 9 samples.

Results

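The genes described here are 10 that define macrophages at the cell surface or in the endosome, or that encode receptors for the colony-stimulating factors: Csf1r, Csf2ra, Csf2rb, Csf3r, Adgre1, Adgre4, Itgam, Itgax, Folr2 and Cd68. They were chosen by name from the 16200 genes of the deposited count table, by a rule that uses no measured value though earlier results of these data were known, and all 10 passed the filter on low counts that left 12587 genes for testing. PolyA RNA was sequenced from wild-type mouse bone marrow-derived macrophages in 3 groups of 3 libraries. The groups were untreated cells, cells given IL-4 at 20 ng/ml for 12 h, and cells given IL-27 at 100 ng/ml for 6 h. All groups had been grown for 6 days in DMEM with 10% L929 supernatant, a medium conditioned by fibroblasts that is used as a source of CSF-1, so the ligand of Csf1r was supplied to treated and untreated cells alike. Whether IL-4 was also added to the IL-27 cells is left unsaid by the labels. They name no animal or culture for a library either, and the p-values thus rest on differences among 9 libraries that may be of technical origin. Dose and time differed between the cytokines, and a difference between the IL-27 and IL-4 groups therefore holds cytokine, dose and time together.

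As background, CSF-1 signals through the receptor tyrosine kinase Csf1r and maintains macrophages. GM-CSF signals through the specific alpha chain Csf2ra paired with the common beta chain Csf2rb, which also serves the IL-3 and IL-5 receptors, while G-CSF signals through Csf3r, best known from neutrophils. Adgre1 (the F4/80 antigen) and Adgre4 (FIRE) are adhesion G protein-coupled receptors with EGF-like repeats. Itgam (CD11b) and Itgax (CD11c) are integrin alpha chains that share the beta chain Itgb2, Folr2 is the folate receptor carried by subsets of resident macrophages, and Cd68 is a heavily glycosylated protein of late endosomes and lysosomes. IL-4 acts through STAT6 and drives the alternatively activated state of macrophages. IL-27 is a cytokine of the IL-12 family.

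Total counts were 34577188 to 37951827 per library. All 14 macrophage markers examined besides the 10 genes exceeded 1 CPM (counts scaled to library size with TMM factors) in every group. Their sum was 32407 to 41482 CPM in untreated, 23534.5 to 26507.2 in IL-4 and 35963.8 to 38216.8 in IL-27 libraries. Lyz2 was the largest part (means 18937, 9407 and 20007). Single markers moved differently, as did Cd14 (359, 57.8 and 211), Mertk (206, 119 and 91.5) and C1qa (185, 170 and 214). Of 8 neutrophil markers in the table, only S100a8 exceeded 1 CPM, and the T and NK cell and erythroid markers stayed below 1 CPM. Of 5 monocyte markers, Ccr2 (15.3, 22.7 and 5.43 CPM in untreated, IL-4 and IL-27 cells) and Vcan (5.16, 3.51 and 12.3) exceeded it. Of 4 eosinophil and mast cell markers Ccr3 was at 3.25, 8.45 and 0.475, and of 5 B cell markers Cd79b at 2.81, 1.51 and 0.457. Of 9 dendritic cell markers, Cd209a exceeded 1 CPM in untreated cells (1.08) and Zbtb46 in IL-4 cells (1.14). Untreated replicate 2 and IL-4 replicate 1 stood apart from the other libraries of their groups. Their log2 deviations from their group means correlated with each other across 9553 genes (r = 0.90, a correlation across genes, which are not independent replicates). A chi-square per gene between replicates was 80.0 to 101 for pairs holding 1 of them and 4.99 to 7.97 for all other pairs. The 9 genes described here with a mean of at least 5 CPM, all but Adgre4, were each higher than the group mean in both of these libraries, by 0.12 (Itgam) to 0.52 (Csf2ra) on the log2 scale. The cause of this deviation was not tested. Fold changes are therefore given with all 9 libraries and, where it matters, without these 2, which leaves 2 untreated, 2 IL-4 and 3 IL-27 libraries. These 2 were picked from the same data for their deviation, so leaving them out lowers the estimated spread by construction. The p-values of that fit may be too small, and a gene that passes only there is not called risen or fallen.

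Levels are compared between genes as the deposited FPKM values, which divide counts by gene length and library total. In untreated cells the order was Cd68 (1252 ± 237 FPKM, mean ± SD, n = 3 here and throughout), Csf1r (696 ± 68.0), Itgax (337 ± 27.3), Itgam (301 ± 4.90), Adgre1 (259 ± 14.1), Csf2rb (112 ± 4.23), Csf2ra (37.6 ± 9.64), Csf3r (26.5 ± 2.59), Folr2 (6.78 ± 1.60) and Adgre4 (3.85 ± 1.05). No 2 neighbours in this order overlapped between libraries. The gene length used for Csf2ra was 13359 bases, against 1247 to 4875 for the other 9 genes, and a long length lowers its FPKM. IL-4 cells had the same order, with the libraries of Csf1r (607 ± 73.6 FPKM) and Itgax (551 ± 55.7) overlapping. In IL-27 cells Csf2rb (201 ± 6.72 FPKM) stood above Adgre1 (162 ± 1.23), a reversal of their untreated order, and no neighbours overlapped.

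**Figure D1:**
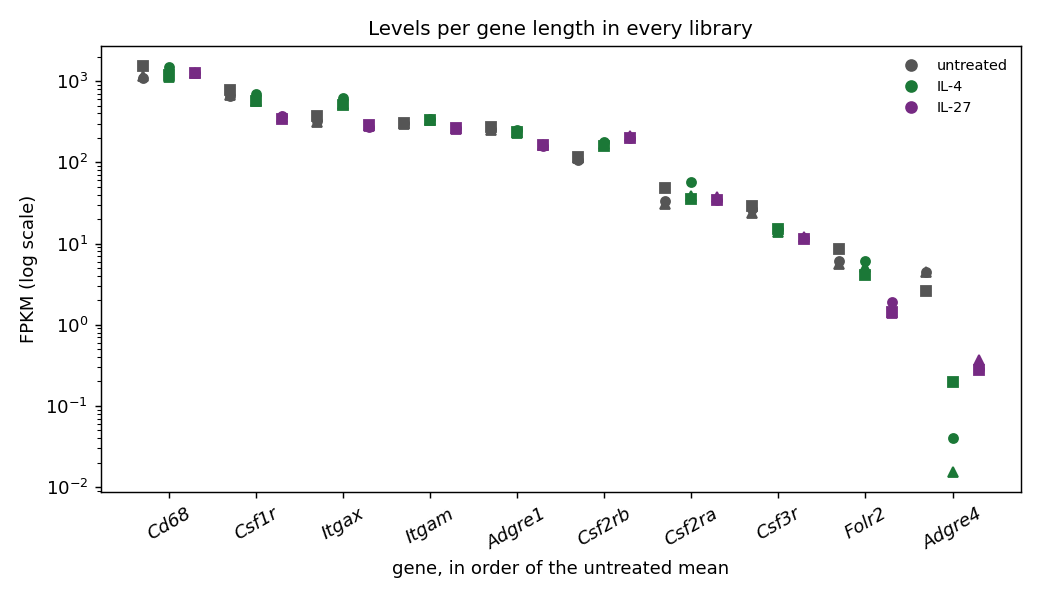
FPKM of the 10 genes (log axis) in each of the 9 libraries, with circles, squares and triangles for replicates 1, 2 and 3 and genes in order of the untreated mean. Cd68 lies at means of 1249 to 1270.0 FPKM in the 3 groups, while Adgre4 spans from 3.85 FPKM on average in untreated cells to 0.084 in IL-4 cells.

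Each group was compared with the others by edgeR's quasi-likelihood test over all 12587 genes, and a gene is said to have risen or fallen where the Benjamini-Hochberg adjusted p was under 0.05. With IL-4, 4 of the 10 genes passed: Csf2rb and Itgax rose, and Csf3r and Adgre4 fell. Over all genes tested 25.0% passed in that comparison, 12.9% higher and 12.0% lower. With IL-27, 6 of 10 passed against untreated cells, where 29.2% of all genes did: Csf2rb rose, and Csf1r, Csf3r, Adgre1, Adgre4 and Folr2 fell. The background was 14.0% of all genes higher and 15.1% lower. Between IL-27 and IL-4 cells 7 of 10 passed, against 39.8% of all genes: Csf2rb and Adgre4 were higher in IL-27 cells, and Csf1r, Adgre1, Itgam, Itgax and Folr2 were lower. There 18.8% of all genes were higher and 21.0% lower.

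Counted by overlap, the IL-4 and untreated libraries were fully separate for 4 of the 10 genes, against 36.0% of all genes. The IL-27 libraries were separate from the untreated ones for 8 of 10 genes, 7 of them lower, where 52.2% of all genes were separate. They were separate from the IL-4 libraries for 8 of 10 genes, against 56.7% of all. The median log2 difference of the 10 genes was -0.10 with IL-4 and -0.46 with IL-27 against untreated cells, and -0.28 between IL-27 and IL-4 cells. The medians over all genes tested were -0.01, 0.00 and 0.01. Without the 2 libraries that stood apart the standard errors of the 10 genes were smaller, and 8, 10 and 9 of the 10 genes passed in the 3 comparisons, where 46.4%, 49.5% and 58.3% of all genes did. In each comparison those genes include every gene that passed with all 9 libraries, as the values below and the plot of fold changes show.

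**Figure D2:**
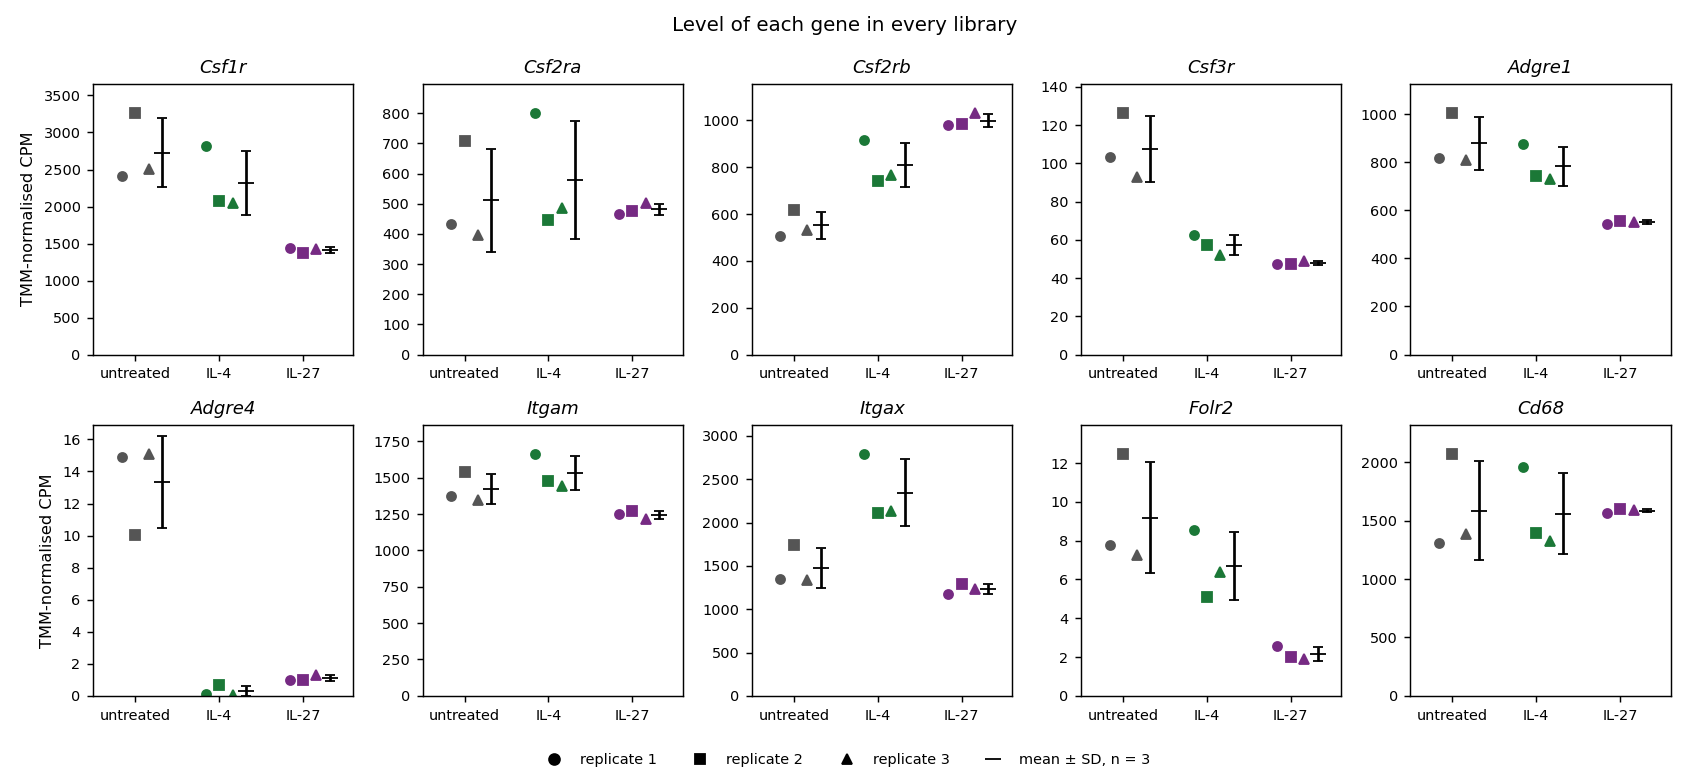
TMM-normalised CPM of each gene in every library (linear axes from 0, 1 panel a gene), with the mean and SD of each group of 3 beside the points. Csf2rb has means of 552, 809.7 and 999.7 CPM in the untreated, IL-4 and IL-27 groups, while untreated replicate 2 and IL-4 replicate 1 are the highest library of their group for every gene but Adgre4.

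**Figure D3:**
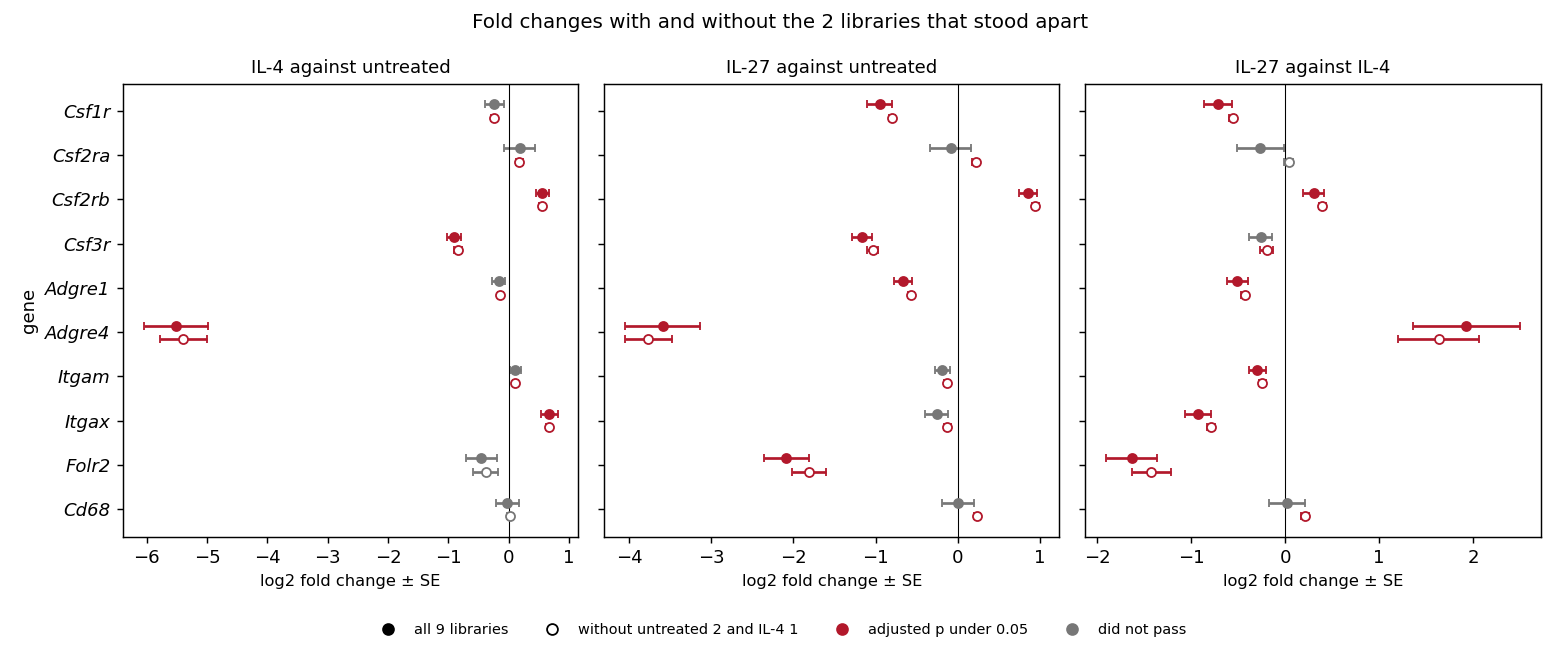
Log2 fold change ± SE of the 10 genes in the 3 comparisons, from all 9 libraries (filled) and without the 2 libraries that stood apart (open), red where the adjusted p was under 0.05 and grey otherwise. With IL-27 against untreated cells, Csf1r, Csf3r, Adgre1, Adgre4 and Folr2 lie left of 0 and Csf2rb right of it in both fits, whereas Csf2ra, Itgam, Itgax and Cd68 pass only without the 2 libraries.

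Csf1r, the receptor for CSF-1, was the most highly expressed of the 4 CSF receptor genes in FPKM and fell with IL-27. Its level was 2416, 3268 and 2503 CPM in untreated libraries, 2812, 2079.7 and 2050.3 in IL-4 libraries, and 1439, 1373 and 1429.7 in IL-27 libraries. All 3 IL-27 libraries were below every other library, while the IL-4 and untreated libraries overlapped. With IL-27 the level was 1.93-fold lower than in untreated cells (log2 -0.95 ± 0.15 SE, edgeR adjusted p = 0.00115) and 1.64-fold lower than in IL-4 cells (log2 -0.71 ± 0.15, adjusted p = 0.00415). The IL-4 difference was -0.24 ± 0.15 (95% interval -0.57 to 0.10, edgeR adjusted p = 0.287). It passed without IL-4 replicate 1 (-0.40, adjusted p = 0.0387) and without both deviating libraries (-0.25 ± 0.04, adjusted p = 1.97e-05). In these bulk libraries fewer cells expressing a gene and less RNA per cell cannot be told apart.

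Csf1, the gene of its ligand, moved the other way with IL-27. Its level was 85.8, 74.6 and 81.3 CPM in untreated, 78.9, 82.4 and 84.7 in IL-4, and 158, 134 and 131 in IL-27 libraries. The IL-27 libraries did not overlap with any other, and the rise was 0.81 ± 0.10 against untreated cells in log2 units (edgeR adjusted p = 0.000222) and 0.78 ± 0.10 against IL-4 cells (adjusted p = 0.000148). Il34, the second ligand of Csf1r, was scarce, at a mean of 0.379 CPM in untreated, 0.361 in IL-4 and 1.05 in IL-27 libraries. Its rise with IL-27 (log2 1.46 ± 0.49, adjusted p = 0.0490) passed in 3 of 9 fits that left out 1 library (untreated replicate 1 or IL-4 replicates 2 or 3). Fibroblast and stroma markers moved with IL-27 as well. Their summed level was 679.8 to 772 CPM in untreated, 508 to 713 in IL-4 and 1044 to 1306 in IL-27 libraries, with 5 of 6 above 1 CPM in every group. The 4 endothelial markers summed to 5.64 to 7.32, 2.82 to 3.44 and 22.8 to 28.2 CPM. Most of that sum was Kdr, with means of 5.33, 2.35 and 23.7 CPM. Cdh5 (0.715, 0.460 and 1.76) and Emcn (0.125, 0.00832 and 0.438) were low and highest with IL-27, while Tie1 (0.301, 0.404 and 0.291) was not. The part of these cell types in the results with IL-27 was not tested.

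Csf2rb, the common beta chain of the GM-CSF, IL-3 and IL-5 receptors, alone among the 10 genes rose under both cytokines. It was at 506, 618 and 532 CPM in untreated, 919, 743 and 767 in IL-4, and 981, 985 and 1033 in IL-27 libraries. The 3 groups did not overlap. The rise was 1.47-fold with IL-4 (log2 0.55 ± 0.11, edgeR adjusted p = 0.00468) and 1.81-fold with IL-27 (0.86 ± 0.11, adjusted p = 0.000297). The level in IL-27 cells was 1.23-fold that in IL-4 cells (0.30 ± 0.11, adjusted p = 0.0485). That last call held without untreated replicate 2 or IL-4 replicate 1, and was lost without any 1 of the other 7 libraries and without the low-count filter (adjusted p = 0.0706).

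Csf2rb has a closely related neighbour, Csf2rb2, which encodes a beta chain specific to IL-3. In GENCODE transcripts the 2 genes share 18.4% of Csf2rb's 50-base windows and 7.0% of its 100-base windows, so how reads were split between them is uncertain. Csf2rb2 was at 567, 714 and 589 CPM in untreated, 734, 580.2 and 570.0 in IL-4, and 815, 834 and 873 in IL-27 libraries. The IL-4 libraries overlapped with the untreated ones (log2 0.01 ± 0.12, 95% interval -0.26 to 0.29, edgeR adjusted p = 0.960), and the IL-27 libraries were above both. Csf2rb2 rose with IL-27 by 0.43 ± 0.12 against untreated cells (adjusted p = 0.0248) and by 0.42 ± 0.12 against IL-4 cells (adjusted p = 0.0211). Each of these calls was kept in 4 of 9 fits without 1 library and was lost without any 1 of the 3 IL-27 libraries, without untreated replicates 1 or 3 in the former and without IL-4 replicates 2 or 3 in the latter. The ratio of Csf2rb to Csf2rb2 in FPKM was 0.867, 0.842 and 0.879 in untreated, 1.22, 1.25 and 1.31 in IL-4, and 1.17, 1.15 and 1.15 in IL-27 libraries. Every treated library was above every untreated one, and the ratio was also separate between the IL-4 and IL-27 libraries.

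Csf2ra, the chain that makes the receptor specific for GM-CSF, did not pass in any comparison. Its level was 432, 707 and 397 CPM in untreated, 802, 448 and 486 in IL-4, and 468, 476 and 503 in IL-27 libraries. The highest values, 707 and 802, came from the 2 libraries that stood apart, and all 3 groups overlapped. The log2 differences were 0.18 ± 0.25 with IL-4 (95% interval -0.38 to 0.74, edgeR adjusted p = 0.660) and -0.09 ± 0.25 with IL-27 (-0.65 to 0.47, adjusted p = 0.828). Without the 2 libraries, both values were positive and passed, at 0.18 ± 0.05 (adjusted p = 0.00693) and 0.21 ± 0.05 (adjusted p = 0.000493), so the sign of the IL-27 value turned. The difference between IL-27 and IL-4 cells was -0.26 ± 0.25 (-0.82 to 0.30, adjusted p = 0.437) with all libraries and 0.04 ± 0.05 without the 2. Il3ra, the alpha chain that pairs with the beta chains for IL-3, was at 70.8 ± 23.1, 63.3 ± 18.9 and 46.7 ± 0.488 CPM and did not pass in any comparison (edgeR adjusted p = 0.672, 0.0868 and 0.174). It passed without the 2 deviating libraries with IL-27 against untreated cells (log2 -0.30, adjusted p = 0.000374) and against IL-4 cells (-0.17, adjusted p = 0.0263), and in the former also without IL-4 replicate 1 alone. Il5ra was too low to be tested, with 17, 1 and 6 counts summed over the untreated, IL-4 and IL-27 groups.

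Csf3r, the G-CSF receptor, fell under both cytokines. It was at 103, 127 and 92.7 CPM in untreated, 62.6, 57.3 and 51.9 in IL-4, and 47.3, 47.5 and 48.9 in IL-27 libraries. All treated libraries were below all untreated ones, and the IL-4 libraries were above those of IL-27. The fall was 1.88-fold with IL-4 (log2 -0.91 ± 0.12, edgeR adjusted p = 0.000518) and 2.24-fold with IL-27 (-1.17 ± 0.12, adjusted p = 9.00e-05). Between IL-27 and IL-4 cells the difference was -0.26 ± 0.12 (95% interval -0.53 to 0.02, adjusted p = 0.123), and it passed without untreated replicate 2 (adjusted p = 0.0443) and without both deviating libraries (-0.20 ± 0.07, adjusted p = 0.0124). Neutrophils carry Csf3r at high levels. The 8 neutrophil markers summed to 3.83 to 4.94 CPM in untreated, 2.05 to 3.21 in IL-4 and 7.91 to 9.08 in IL-27 libraries, and Mpo, Elane and Retnlg had no count in any untreated library. Nearly all of this sum was S100a8, with means of 4.09, 2.28 and 8.32 CPM. S100a9 (0.152, 0.154 and 0.0273) and Ngp (0.118, 0.0592 and 0) were lowest with IL-27, and the rest had means of at most 0.0847 CPM. The part of neutrophils in the Csf3r result was not tested.

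Among 7 tested ligands and sister chains of these receptors (Csf1, Il34, Csf2rb2, Il3ra, Kit, Kitl and Flt3l), none passed edgeR's test with IL-4 (median log2 -0.07), and 0 passed at an unadjusted p under 0.05 or by DESeq2. Flt3l passed there without IL-4 replicate 1 (adjusted p = 0.0151) and without both deviating libraries (-0.90, adjusted p = 0.0166). With IL-27, 3 rose (Csf1, Csf2rb2 and Il34) and 1 fell (Flt3l), with a median of 0.43. Between IL-27 and IL-4 cells 4 were higher (Csf1, Csf2rb2, Il34 and Kit) and none lower (median 0.42), where 0 were lower at an unadjusted p under 0.05 or by DESeq2. Without 1 library, the Flt3l call with IL-27 was kept in 3 of 9 fits and the Kit and Il34 calls against IL-4 cells in 4 of 9 each. Without both deviating libraries the Kit call (adjusted p = 0.0825) and the Il34 call against untreated cells (adjusted p = 0.0788) were lost. Of 26 tested genes that carry or restrain CSF receptor signals, 5 rose and 7 fell with IL-4 (median -0.25), and 3 rose and 8 fell with IL-27 (median -0.08). In IL-27 against IL-4 cells 7 were higher and 7 lower (median 0.07). Several of those with the smallest p are inhibitors. Cish, a STAT5-induced SOCS family inhibitor, was at 0.856 CPM in untreated, 41.9 in IL-4 and 0.201 in IL-27 cells. It rose with IL-4 (log2 5.61 ± 0.22, edgeR adjusted p = 2.97e-07) and fell with IL-27 (-2.07 ± 0.32, adjusted p = 0.000929). Socs1 rose under both, by 3.82 ± 0.22 with IL-4 and 1.87 ± 0.21 with IL-27 (adjusted p = 2.20e-06 and 0.000125). Socs3, which restrains STAT3 signals and the G-CSF receptor, rose with IL-27 (3.78 to 14.9 CPM, log2 1.97 ± 0.17, adjusted p = 1.87e-05). Jak2, the kinase bound to Csf2rb, rose with IL-4 (49.8 to 128 CPM, log2 1.36 ± 0.18, adjusted p = 0.000436). The adaptor Dok2 rose with IL-4 (log2 1.33 ± 0.11, adjusted p = 2.34e-05) and fell with IL-27 (-1.08 ± 0.11, adjusted p = 6.58e-05). Pik3cd, the leukocyte PI3-kinase catalytic subunit, fell with IL-27 (204 to 83.3 CPM, log2 -1.29 ± 0.16, adjusted p = 0.000221).

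Adgre1, whose product F4/80 is the standard surface marker of mouse macrophages, fell with IL-27. The levels were 817, 1006 and 809.9 CPM in untreated, 875, 741 and 732 in IL-4, and 543, 557 and 553 in IL-27 libraries. The IL-27 libraries lay below every other library, whereas the IL-4 and untreated libraries overlapped. The fall was 1.59-fold against untreated cells (log2 -0.67 ± 0.11, edgeR adjusted p = 0.00130) and 1.42-fold against IL-4 cells (-0.51 ± 0.11, adjusted p = 0.00454). With IL-4 the difference was -0.16 ± 0.11 (95% interval -0.41 to 0.08, adjusted p = 0.311), which passed without the 2 deviating libraries (-0.14 ± 0.04, adjusted p = 0.00816).

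Adgre4 had the largest fold changes of the 10 genes, at a low level. Its counts were 537, 333 and 541 in untreated, 5, 26 and 2 in IL-4, and 37, 36 and 48 in IL-27 libraries, which corresponds to 14.9, 10.0 and 15.1, to 0.147, 0.649 and 0.0509, and to 1.01, 0.993 and 1.31 CPM. The 3 groups did not overlap. Untreated cells had the highest level, IL-27 cells an intermediate one and IL-4 cells the lowest, and untreated replicate 2 was the lowest untreated library here, unlike for the other 9 genes. Adgre4 was 45.8-fold lower with IL-4 (log2 -5.52 ± 0.53, edgeR adjusted p = 6.74e-05) and 12.1-fold lower with IL-27 (-3.59 ± 0.45, adjusted p = 0.000279). From summed counts alone, 1411 in untreated against 33 in IL-4 cells gave a ratio of 46.2 (exact binomial 95% interval 32.7 to 67.4), and 1411 against 121 in IL-27 cells gave 12.2 (10.1 to 14.8). These intervals cover counting error only. The level in IL-27 cells was 3.80-fold that in IL-4 cells (log2 1.93 ± 0.57, adjusted p = 0.0216). The latter rests on IL-4 libraries of 5, 26 and 2 counts. It was 3.48 on the log2 scale without IL-4 replicate 2 and 1.42 without IL-4 replicate 3, and it did not pass without IL-27 replicate 3 (adjusted p = 0.0692) or when only these 2 groups were fitted (adjusted p = 0.0531). Adgre1 and Adgre4 share no 50-base window in their GENCODE transcripts.

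Of 15 other adhesion G protein-coupled receptors tested, 2 rose and 1 fell with IL-4 (median log2 -0.05), and 4 rose and 1 fell with IL-27 (median 0.18). For IL-27 against IL-4 cells these numbers were 4 and 1 (median 0.47). Adgre5 (CD97), the closest relative of the pair in the list, was at 410.2 ± 85.1, 336 ± 56.6 and 302 ± 18.2 CPM in untreated, IL-4 and IL-27 cells and did not pass in any comparison (edgeR adjusted p = 0.215, 0.0597 and 0.475). Without the 2 deviating libraries Adgre5 passed with IL-4 (log2 -0.25, adjusted p = 0.000271) and with IL-27 (-0.26, adjusted p = 4.35e-05). It also passed in both comparisons without IL-4 replicate 1 alone, and with IL-27 without untreated replicate 1. Adgrg3 (GPR97) rose with IL-27 from 2.67 to 10.4 CPM (log2 1.96 ± 0.21, adjusted p = 9.72e-05). Adgrg1 (GPR56) rose with IL-27 from 3.13 to 6.15 CPM (0.98 ± 0.22, adjusted p = 0.00811). The latrophilin Adgrl1 rose with IL-4 from 7.22 to 12.7 CPM (0.81 ± 0.19, adjusted p = 0.0110).

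Itgam and Itgax lie next to each other on chromosome 7 and encode partners of the same beta chain. With all 9 libraries Itgax rose with IL-4, while Itgam did not pass. The difference between these responses was not tested, and the ratios given below are descriptions. Itgax (CD11c) was at 1353, 1737 and 1335 CPM in untreated, 2792, 2111 and 2130.2 in IL-4, and 1181, 1294 and 1228 in IL-27 libraries. All 3 IL-4 libraries were above all others, and all 3 IL-27 libraries were below all untreated ones. It rose 1.59-fold with IL-4 (log2 0.67 ± 0.14, edgeR adjusted p = 0.00642) and was 1.90-fold lower in IL-27 than in IL-4 cells (-0.93 ± 0.14, adjusted p = 0.000513). Against untreated cells the IL-27 value was -0.26 ± 0.14 (95% interval -0.57 to 0.05, adjusted p = 0.196), which passed without the 2 deviating libraries (-0.13 ± 0.04, adjusted p = 0.0106).

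Itgam (CD11b) was at 1377, 1539 and 1346 CPM in untreated, 1663, 1478 and 1446 in IL-4, and 1252, 1269.6 and 1213 in IL-27 libraries. The IL-4 and untreated libraries overlapped (log2 0.11 ± 0.09, 95% interval -0.10 to 0.31, edgeR adjusted p = 0.441). The IL-4 value passed only without the 2 deviating libraries (adjusted p = 0.0403). The IL-27 libraries lay below both groups. Against untreated cells that IL-27 value did not pass (-0.19 ± 0.09, -0.39 to 0.01, adjusted p = 0.145). It passed without the 2 deviating libraries (-0.13 ± 0.04, adjusted p = 0.00467). Against IL-4 cells Itgam was 1.23-fold lower with IL-27 (-0.30 ± 0.09, adjusted p = 0.0258), a call that was lost without IL-4 replicate 1 (adjusted p = 0.0598) or without any 1 of the 3 IL-27 libraries (0.0675 to 0.0951). Within each library the ratio of Itgax to Itgam in FPKM was 1.06, 1.22 and 1.07 in untreated, 1.82, 1.54 and 1.59 in IL-4, and 1.02, 1.10 and 1.09 in IL-27 libraries. Every IL-4 library was above every other library in this ratio, while the untreated and IL-27 libraries overlapped. The shared beta chain Itgb2 was at 2506 ± 602, 2663 ± 650.3 and 2382 ± 111 CPM and did not pass in any comparison (adjusted p = 0.788, 0.804 and 0.535). Without the 2 deviating libraries its IL-27 value against untreated cells turned from -0.07 to 0.14 and passed (adjusted p = 0.00651).

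The 250 bases upstream of the RefSeq start are shown for the integrin neighbours and for Csf3r and Adgre4, which fell under both cytokines. Of the neighbours, Itgax alone passed with IL-4 with all 9 libraries, and both passed without the 2 deviating libraries. They come from RefSeq on GRCm38.p6, an older build than the GRCm39 of the counts. Promoter windows were matched for 7 of the 10 genes. Capitals mark matches on either strand to GAGGAA, the core of sites for PU.1, or to TTCNNNNGAA, the spacing bound by STAT6.
Itgam, chr7:128062390-128062639, + strand: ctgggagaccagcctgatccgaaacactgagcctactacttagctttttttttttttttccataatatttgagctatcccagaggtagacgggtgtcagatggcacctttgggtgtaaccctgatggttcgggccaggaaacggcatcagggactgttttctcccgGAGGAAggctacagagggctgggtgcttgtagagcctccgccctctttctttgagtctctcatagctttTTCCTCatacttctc
Itgax, chr7:128129300-128129549, + strand: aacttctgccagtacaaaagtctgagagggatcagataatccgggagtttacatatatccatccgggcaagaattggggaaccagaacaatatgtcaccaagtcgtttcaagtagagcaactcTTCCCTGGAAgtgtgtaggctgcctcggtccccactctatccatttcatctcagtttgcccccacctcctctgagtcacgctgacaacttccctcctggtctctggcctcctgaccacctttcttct
Csf3r, chr4:126024409-126024658, + strand: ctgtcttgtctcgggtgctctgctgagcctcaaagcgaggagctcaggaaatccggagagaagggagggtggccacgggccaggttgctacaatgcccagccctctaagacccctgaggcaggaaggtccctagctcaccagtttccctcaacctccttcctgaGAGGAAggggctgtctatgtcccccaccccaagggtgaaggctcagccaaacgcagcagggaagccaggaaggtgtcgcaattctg
Adgre4, chr17:55749734-55749983, + strand: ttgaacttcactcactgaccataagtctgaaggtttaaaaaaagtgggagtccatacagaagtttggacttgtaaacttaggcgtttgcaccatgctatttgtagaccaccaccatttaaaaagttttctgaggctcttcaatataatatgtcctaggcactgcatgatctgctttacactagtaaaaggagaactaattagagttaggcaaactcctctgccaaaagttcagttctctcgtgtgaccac
The Itgam window held GAGGAA at 84 and, on the opposite strand, at 15 bases before the start, and the Csf3r window held it at 86 bases before. The Itgax window held TTCNNNNGAA at 127 bases before the start. The Adgre4 window held neither. GAGGAA was found in 23.3% and TTCNNNNGAA in 5.9% of 32851 mouse promoter windows of the same length. TTCNNNGAA, the spacing of other STAT sites, was found in 7.0% of all windows and in none of the 8 windows of these genes, which include 2 for Folr2. The 3 motifs were searched separately, and GAGGAA does not overlap with the other 2 in the windows shown. A match describes letters in a window and shows no binding.

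Among 23 other integrin chains, ligands and activators tested, 3 rose and 7 fell with IL-4 (median log2 -0.01), and 5 rose and 5 fell with IL-27 (median -0.07). Set against IL-4 cells, IL-27 cells had 5 higher and 5 lower (median 0.17). Over all genes 25.0%, 29.2% and 39.8% passed in these 3 comparisons. The IL-4 calls of Apbb1ip and Itgb8 (higher) and Itga4 (lower) were each kept in 1 of 9 fits without 1 library. Itga3 and Icam1 (both lower with IL-4) kept theirs in 5 and 7 of 9. With IL-27, Itgav (higher) and Fermt3 (lower) each kept theirs in 5 of 9. Itgb3, the beta chain of the vitronectin receptor, rose under both cytokines, from 131 to 374 CPM with IL-4 (log2 1.51 ± 0.14, edgeR adjusted p = 4.84e-05) and to 419 CPM with IL-27 (1.68 ± 0.14, adjusted p = 1.80e-05). Itgal (CD11a), another partner of Itgb2, fell under both, from 497 to 349.9 CPM with IL-4 (-0.51 ± 0.12, adjusted p = 0.0141, lost without IL-4 replicates 2 or 3) and to 190.0 CPM with IL-27 (-1.39 ± 0.13, adjusted p = 3.21e-05). Itga9 and the integrin ligand Vcam1 fell with IL-4 and rose with IL-27. Itga9 went from 8.88 to 3.31 and 17.9 CPM (-1.42 ± 0.18, adjusted p = 0.000333, and 1.01 ± 0.17, adjusted p = 0.00158). Vcam1 went from 12.4 to 6.10 and 25.9 CPM (-1.02 ± 0.16, adjusted p = 0.00125, and 1.07 ± 0.16, adjusted p = 0.000650). Icam2, a ligand of the Itgb2 integrins, fell with IL-27 from 3.65 to 0.483 CPM (-2.91 ± 0.30, adjusted p = 7.93e-05).

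Folr2, the folate receptor of resident macrophages, was low in all groups and fell with IL-27. It was at 7.79, 12.5 and 7.28 CPM in untreated, 8.57, 5.12 and 6.39 in IL-4, and 2.59, 1.99 and 1.89 in IL-27 libraries. The IL-27 libraries were below all others, and the IL-4 and untreated libraries overlapped. The fall was 4.25-fold against untreated cells (log2 -2.09 ± 0.27, edgeR adjusted p = 0.000356) and 3.10-fold against IL-4 cells (-1.63 ± 0.27, adjusted p = 0.000968). With IL-4 the value was -0.46 ± 0.26 (95% interval -1.03 to 0.11, adjusted p = 0.230), and it did not pass without the 2 deviating libraries either (-0.39 ± 0.21, adjusted p = 0.142). Of 7 other folate receptors, carriers and enzymes tested, 2 rose and 1 fell in each comparison with untreated cells (medians 0.08 with IL-4 and 0.27 with IL-27). Compared with IL-4 cells, 1 was higher and 2 were lower in IL-27 cells (median 0.44). The intestinal-type folate carrier Slc46a1 fell with IL-4 from 9.67 to 6.17 CPM (-0.65 ± 0.13, adjusted p = 0.00499) and was at 13.2 CPM with IL-27 (0.45 ± 0.13, adjusted p = 0.0231, lost without untreated replicates 1 or 3 or any 1 IL-27 library). The reduced folate carrier Slc19a1 rose with IL-4 from 12.7 to 17.9 CPM (0.50 ± 0.12, adjusted p = 0.0121, lost without IL-4 replicate 3).

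Cd68, the endosomal marker and the highest of the 10 genes per length, had nearly equal means in the 3 groups. It was at 1306, 2071 and 1383 CPM in untreated, 1955, 1398 and 1324 in IL-4, and 1569, 1598 and 1591 in IL-27 libraries. The values of 2071 and 1955 came from the 2 libraries that stood apart, and without them both untreated libraries lay below the 3 IL-27 libraries. The log2 differences were -0.03 ± 0.19 with IL-4 (95% interval -0.45 to 0.40, edgeR adjusted p = 0.940) and 0.00 ± 0.19 with IL-27 (-0.43 to 0.43, adjusted p = 0.999). Without the 2 libraries the IL-27 value was 0.23 ± 0.04 and passed (adjusted p = 2.47e-05), and that against IL-4 cells was 0.21 ± 0.04 (adjusted p = 5.99e-05). Lamp1, a relative of Cd68 in the lysosomal membrane, was at 2510.0 ± 335, 2185 ± 221 and 2519 ± 58.1 CPM and did not pass in any comparison. Without the 2 deviating libraries it passed in all 3, at -0.17 with IL-4 (adjusted p = 0.00200), 0.11 with IL-27 (adjusted p = 0.0154) and 0.28 between IL-27 and IL-4 cells (adjusted p = 7.40e-07). Of the 2 LAMP genes tested, neither passed against untreated cells with all 9 libraries by edgeR, by DESeq2 or at an unadjusted p under 0.05. Without the 2 libraries Lamp2 passed with IL-4 (-0.13, adjusted p = 0.0268). With all libraries Lamp2 was higher in IL-27 than in IL-4 cells (log2 0.36 ± 0.13, edgeR adjusted p = 0.0483, kept only without untreated replicate 2 or IL-4 replicate 2 among the 9 fits without 1 library).

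Ratios taken within a library leave out what moves all genes of that library together, though not what moves them unequally. The ratio of Csf2rb to Csf1r in FPKM was 0.166, 0.150 and 0.169 in untreated, 0.260, 0.284 and 0.298 in IL-4, and 0.542, 0.570 and 0.575 in IL-27 libraries. The 3 groups were fully separate, with means of 0.162 ± 0.0101, 0.280 ± 0.0192 and 0.562 ± 0.0177. Csf1r over Cd68 was 0.595, 0.508 and 0.582 in untreated, 0.463, 0.479 and 0.498 in IL-4, and 0.295, 0.276 and 0.289 in IL-27 libraries. This ratio was also separate between all 3 groups, the highest IL-4 value being 0.498 and the lowest untreated 0.508. Adgre1 over Cd68 was 0.181 to 0.233 in untreated, 0.167 to 0.206 in IL-4 and 0.129 to 0.130 in IL-27 libraries, with overlap of the former pair of groups. Csf3r over Csf1r was 0.0357 to 0.0413, 0.0215 to 0.0266 and 0.0317 to 0.0334 in the same order, so relative to Csf1r it was lowest in IL-4 libraries. These ratios are descriptions and were not tested.

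**Figure D4:**
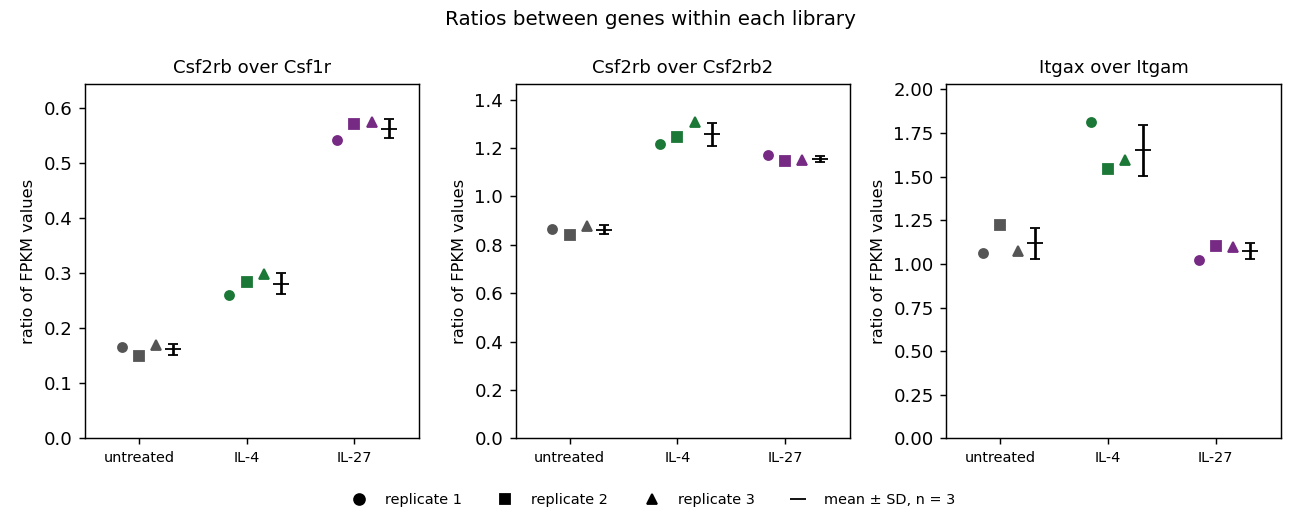
Ratios of FPKM values within each library (axes from 0) for Csf2rb over Csf1r, Csf2rb over Csf2rb2 and Itgax over Itgam, with the mean and SD of each group of 3. Csf2rb over Csf1r separates all 3 groups (means 0.162, 0.280 and 0.562), and Itgax over Itgam sets the IL-4 libraries (1.54 to 1.82) above the others.

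Across the 9 libraries the 10 genes fell into several patterns, given here as Pearson r of log2 CPM, with no test, since the points share library, depth and the 2 deviating libraries. Csf1r and Adgre1 were most alike (r = 0.995), and Folr2 followed both (0.980 with Csf1r and 0.981 with Adgre1). Itgam and Itgax had r = 0.910, while Csf2rb and Csf3r ran in opposite directions (-0.863). Similar genes were sought among the 9553 with a mean of at least 5 CPM, after unnamed gene models were left out of these. The most similar to Csf1r were Rab11fip5 (0.997), Adgre1 and Irak4 (0.994), and those most similar to Adgre1 were Rab11fip5 (0.996), Csf1r and G6pdx (0.994). Csf2rb was most like Tgm2 (0.998), Odc1 (0.995) and Taf15 (0.992). The genes most like Csf2ra were Nkiras2 (0.989), Arfgap1 and Ap2a1 (0.988 each), and those most like Csf3r were Tsc22d4 (0.988), Limd2 and Dgka (0.987 each). Itgax was nearest to Osgep (0.995), Rcc1 and Atp5o (0.992 each), and Itgam to Acly (0.995), Ap2s1 (0.994) and Anapc15 (0.993). Folr2 was nearest to Marveld1 (0.989), Irak4 and Dusp7 (0.988 each). Cd68 had Rtcb (0.986), Maea and Trappc3 (0.978 each), and Adgre4, with the lowest top value, had Mxd1 (0.970), Mylip (0.969) and Clp1 (0.964).

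Of 17 tested transcription factors of the macrophage lineage, 8 rose and 4 fell with IL-4 (median log2 0.16), and 5 rose and 7 fell with IL-27 (median -0.07). Against IL-4 cells, 2 were higher and 6 lower in IL-27 cells (median -0.04). Klf4 rose under both, from 8.15 to 50.6 CPM with IL-4 (log2 2.63 ± 0.14, edgeR adjusted p = 1.16e-06) and to 22.9 CPM with IL-27 (1.49 ± 0.13, adjusted p = 2.81e-05). Bhlhe40 rose from 208 to 469 and 542 CPM (adjusted p = 7.55e-06 and 2.19e-06). Maf fell under both, from 163 to 53.7 CPM with IL-4 (-1.60 ± 0.15, adjusted p = 4.59e-05) and to 63.3 CPM with IL-27 (-1.36 ± 0.14, adjusted p = 9.03e-05). Tfec, an MiT family factor found in macrophages, rose with IL-4 from 16.4 to 40.7 CPM (1.31 ± 0.13, adjusted p = 8.94e-05) and fell with IL-27 to 7.33 CPM (-1.16 ± 0.14, adjusted p = 0.000170). Irf8 was at 279 CPM in untreated, 161 in IL-4 and 427 in IL-27 cells, and was 1.41 ± 0.16 higher on the log2 scale in IL-27 than in IL-4 cells (adjusted p = 6.94e-05). Spi1, which encodes PU.1, was chosen for naming here after its values were seen and did not pass with IL-4 (log2 0.16 ± 0.12, adjusted p = 0.379) or with IL-27 (0.12 ± 0.12, adjusted p = 0.486). Without the 2 deviating libraries it passed in both, at 0.12 (adjusted p = 0.0314) and 0.21 (adjusted p = 0.000145).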

How the data were processed

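The 10 genes and the related lists were chosen with earlier results of these data known. The authors deposited a table of whole-number counts per gene and an FPKM table of the same 9 libraries. The deposited FPKM values are the counts divided by gene length and library total: the lengths they imply came out whole for 100% of genes, to within 1e-04 bases. The submitters' processing notes name fastp, HISAT2, HTSeq and GRCm39, with no versions or roles. Strand and the handling of multiply assigned reads were not given in the sources used here.

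Counts were fitted with edgeR 4.0.16 in R 4.3.3 (limma 3.58.1), all 9 libraries in 1 model with TMM factors of 0.918 to 1.06, filterByExpr with a minimum count of 10, and quasi-likelihood tests adjusted by Benjamini-Hochberg over 12587 genes. The SE is the log2 fold change divided by the root of F. The coefficient of variation between libraries was 0.165 (common dispersion 0.0272). Likeness used log2 CPM with a prior count of 2. The script was tested on simulated counts. Alternatives were DESeq2 1.42.0, other filters and scaling, 2 groups only, the replicate block and leaving out libraries. All 10 genes are named whatever their result. In each related list up to 4 genes with the smallest adjusted p in a comparison, direct ligands and partner chains and the related gene Csf2rb2 are named, and for each of the 10 genes the 3 most similar others. Some other list genes are named because leaving out 1 library changed their call. No gene named Csf2 or Csf3 was in the count table, so neither was analysed. Some related genes are not reported here.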

Additional observations from a re-analysis of the deposited data

How the results depend on the processing

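The 4 genes of the 10 that passed with IL-4 and the 6 that passed with IL-27 against untreated cells kept those calls in every fit without 1 library. Over these fits 4 to 5, 6 to 6 and 4 to 8 of the 10 genes passed with IL-4, with IL-27 and between the cytokines, and 2313 to 3666, 2580 to 4618 and 3859 to 5700 of all genes. Without untreated replicate 2 and IL-4 replicate 1 together, the counts were 8 and 10 of the 10 genes for the comparisons with untreated cells, and 5909 and 6313 of all genes against 3145 and 3670. Of 9 same-numbered pairs of libraries from different groups, 1 had deviations correlated over 0.1 (r -0.797 to 0.666). The 2 deviating libraries carry different replicate numbers and shape these values. Whether the shared numbers pair the libraries by animal or culture therefore cannot be decided from them. With the replicate number as a block, 4 of the 10 genes passed between IL-27 and IL-4 cells, against 7 without it, while 33.5% of all genes passed against 39.8%, and the adjusted p was 0.104 for Csf2rb, 0.0519 for Adgre4 and 0.0567 for Itgam. For Csf2rb2 it was 0.0608 with IL-27 against untreated cells and 0.0511 against IL-4 cells. Among the 10 genes and Csf2rb2 the sign turned for Csf2ra, Cd68 and Csf2rb2, none of which had passed in those comparisons. With IL-4, values over the fits without 1 library ran from -0.13 to 0.48 for Csf2ra, -0.22 to 0.21 for Cd68 and -0.11 to 0.12 for Csf2rb2, and without both deviating libraries they were 0.021 for Cd68 and -0.0034 for Csf2rb2. With IL-27 against untreated cells they ran from -0.24 to 0.22 for Csf2ra and -0.12 to 0.23 for Cd68, and without both libraries they were 0.21 and 0.23. Cd68 was then at 0.0028 with a filter of 1 CPM and 0.014 with the block. Between IL-27 and IL-4 cells they ran from -0.42 to 0.045 for Csf2ra, which was 0.039 without both libraries, and from -0.081 to 0.22 for Cd68. Where leaving out libraries or adding the block changed a call, the cause was not tested. DESeq2 called 3840, 4429 and 5613 of all genes. Of the 10 genes, Adgre4 in IL-4 cells rests on the fewest counts (2 to 26 a library).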
